A study of Mus musculus with 25 samples.

Results

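The genes described here encode nuclear subunits and assembly factors of the mitochondrial respiratory chain. They were the 90 of 18193 genes on the array whose symbol began with Ndufa, Ndufb, Ndufc, Ndufs, Ndufv, Uqcr or Atp5, or with Cox followed by a digit from 4 to 8, or was Sdha, Sdhb, Sdhc or Sdhd. By complex they comprised 34 genes of complex I, 8 complex I assembly factors (Ndufaf1 to Ndufaf8), 4 genes of complex II, 8 of complex III, 19 of complex IV and 17 of complex V. Ndufa4 was counted with complex IV, in which its protein is found despite its name. The probe set of highest mean signal over the 25 arrays stood for each gene, and 51 of the 90 had more than 1 probe set to choose from. Levels are log2 signals, so a difference of 1 is a doubling. Of the 90 genes, 84 lay above the 40th percentile of the array in all 25 arrays, and Cox7b2 in 0 of them.

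The 25 mouse arrays formed 10 groups. Induced macrophages (iMacs) were made from C10, a pre-B cell line, by a transcription factor switched on with 100 nM estradiol in the presence of IL-3 and CSF-1, as the scramble labels describe it. They had received lentivirus with scramble, Ebf1 or Pou2af1 shRNA and puromycin selection before conversion (n = 2 arrays each), and all derive from that 1 line. Induced hepatocytes (iHeps) were made from C57BL/6J embryonic fibroblasts (E13.5) by retroviral Foxa1 and Hnf4a, and were labelled as independent lines (n = 3). Further iHeps carried lentiviral scramble or Cdx2 shRNA under puromycin selection (n = 4 each). Engrafted iHeps were recovered by their green fluorescence 12 days after transfer into colons damaged by dextran sulfate in Rag2gammac-/- mice, which lack lymphocytes (n = 2). Native tissue was fetal liver (E14.5) and adult liver of C57BL/6J, and colon crypts of Rag2gammac-/- mice aged 8 weeks (n = 2 each). For adult liver the source label names whole organs of 8-week-old mice, while the protocol describes collagenase isolation of hepatocytes at 10 weeks of age; which is right is not known. Apart from the iHep lines, the labels do not say whether replicates were separate cultures or animals, and p-values cover no more than the spread among the arrays given.

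The respiratory chain passes electrons from NADH through complex I, or from succinate through complex II, to ubiquinone. Complex III hands them on to cytochrome c, and complex IV, cytochrome c oxidase, gives them to oxygen. Complexes I, III and IV pump protons, and complex V, the ATP synthase, uses the gradient to make ATP. Several small subunits of complex IV exist as alternative isoforms, such as Cox7a1, Cox6a2 and Cox8b in heart and skeletal muscle against Cox7a2, Cox6a1 and Cox8a in liver and most other tissues. Cox6b2, Cox7b2 and Cox8c are best known from testis, and Cox4i2 from lung. The transcription factors NRF1, GABP, YY1 and the estrogen-related receptors are known activators of many of these genes.

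The promoters below belong to the genes on which the shRNA results turn. Cox7a1 and Cox6b2 were lower in iHeps with Cdx2 shRNA, and Ndufa4 and Ndufaf4 were lower in iMacs with Ebf1 shRNA. Each line is the 250 bases before the RefSeq transcript start in GRCm38.p6, read 5′ to 3′ on the gene's strand, with motif letters in capitals. The windows are chr7:30183921-30184170 on the plus strand for Cox7a1, chr7:4753095-4753344 on the minus strand for Cox6b2, chr6:11907451-11907700 on the minus strand for Ndufa4 and chr4:24897833-24898082 on the plus strand for Ndufaf4.
Cox7a1: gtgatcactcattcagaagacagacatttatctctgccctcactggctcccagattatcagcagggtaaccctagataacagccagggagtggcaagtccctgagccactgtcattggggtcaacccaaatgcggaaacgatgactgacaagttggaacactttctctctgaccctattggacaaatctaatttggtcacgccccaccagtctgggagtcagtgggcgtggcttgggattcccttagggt
Cox6b2: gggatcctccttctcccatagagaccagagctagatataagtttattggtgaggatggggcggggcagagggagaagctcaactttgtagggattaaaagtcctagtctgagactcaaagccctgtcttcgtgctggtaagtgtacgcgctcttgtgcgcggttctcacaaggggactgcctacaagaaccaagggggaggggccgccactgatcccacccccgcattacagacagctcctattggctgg
Ndufa4: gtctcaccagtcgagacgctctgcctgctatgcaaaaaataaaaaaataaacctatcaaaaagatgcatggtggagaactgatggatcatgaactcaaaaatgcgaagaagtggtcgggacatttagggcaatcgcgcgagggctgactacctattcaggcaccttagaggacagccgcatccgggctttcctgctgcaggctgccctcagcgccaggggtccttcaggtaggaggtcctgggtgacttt
Ndufaf4: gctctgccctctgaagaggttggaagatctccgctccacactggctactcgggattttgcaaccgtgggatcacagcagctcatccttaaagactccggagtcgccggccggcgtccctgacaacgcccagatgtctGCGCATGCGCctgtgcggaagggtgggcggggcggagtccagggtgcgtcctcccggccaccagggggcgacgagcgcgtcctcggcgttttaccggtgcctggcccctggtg
The capitals in the Ndufaf4 promoter mark the NRF1 motif, a palindrome of 10 bases. RefSeq promoter windows of 250 bases before to 50 bases after the start were matched for 74 of the 90 genes, 79 windows in all, and searched on both strands. The NRF1 motif stood in 6 of the 79 windows (7.59%, against 0.971% of all 32851 windows), those of Atp5g2, Atp5k, Cox6a1, Ndufaf4, Ndufaf5 and Uqcrc1. AAGATGGC, for YY1, stood in 10 windows (12.7% against 2.75%), CCGGAAGT, for GABP, in 5 (6.33% against 3.89%) and TCAAGGTCA, for the estrogen-related receptors, in 2 (2.53% against 0.423%). At least 1 of these 4 motifs was found in 23 windows, 29.1% against 7.74%. The motifs of Cdx2 and Ebf1 were not among those planned and were added to the search. TTTATG, for Cdx2, stood in 2.53% of the windows against 11.9% of all, and the palindromic Ebf1 motif in 0 windows against 0.904%. Neither of these stood in the windows of Cox7a1, Cox6b2, Ndufa4 or Ndufaf4, which says only that the letters are not in those windows.

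Adult liver and colon lay at the ends of the range for most of the genes. The adult liver mean was the lowest of the 10 group means for 64 of the 90 genes, and the colon mean the highest for 44. The median level over the 90 genes was 10.25 and 11 in the 2 adult liver arrays, the lowest of the 25. It was 11.97 and 11.78 in fetal liver, 11.99, 12.15 and 12.13 in iHeps, and 12.60 and 12.50 in colon. The 6 iMac arrays lay between 11.53 and 11.69, the 4 iHep scramble arrays between 12.14 and 12.24 and the 4 Cdx2 shRNA arrays between 12.17 and 12.20. The 2 adult liver arrays lay further apart from each other than any other arrays of 1 group did. Adult liver was lowest in each complex as well, with its arrays at a median of 6.99 and 7.32 for the complex I assembly factors and all other arrays between 9.05 and 9.62. For complex V the median was 11.25 and 11.79 in adult liver, 12.44 and 12.33 in fetal liver, 12.60 to 12.67 in iHeps and 13.30 and 13.24 in colon. For complex IV the median was 9.52 and 9.84 in adult liver. It was 11.34 and 11.27 in fetal liver and 12.03 to 12.28 in iHeps, but gene by gene the 2 groups did not part that way: 9 of 18 differences of iHep minus fetal liver were positive and 9 negative, with a median of -0.01. In complex III the adult liver arrays were far apart, at 10.20 and 11.44, and the other arrays lay between 11.88 and 12.84.

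The genes of each complex differed in how far their group means ranged. In complex I the range was widest for Ndufa5, from 9.17 in adult liver to 13.32 in colon, and narrowest for Ndufb11, from 12.85 in fetal liver to 13.41 in colon. Ndufaf5 had the widest range of the assembly factors, from 5.97 in adult liver to 9.55 in engrafted iHeps. In complexes II, III and V the widest ranges also ran from adult liver to colon, with Sdhc from 9.18 to 11.71, Uqcrh from 10.57 to 13.74 and Atp5o from 9.28 to 13.27. Uqcrc2, a core subunit with the narrowest range of complex III, ran from 10.67 in the Pou2af1 shRNA arrays to 12.21 in scramble iHeps. In complex IV the range was 7.10 for Cox7a1 and 0.80 for Cox6a2, the widest and the narrowest.

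**Figure D1:**
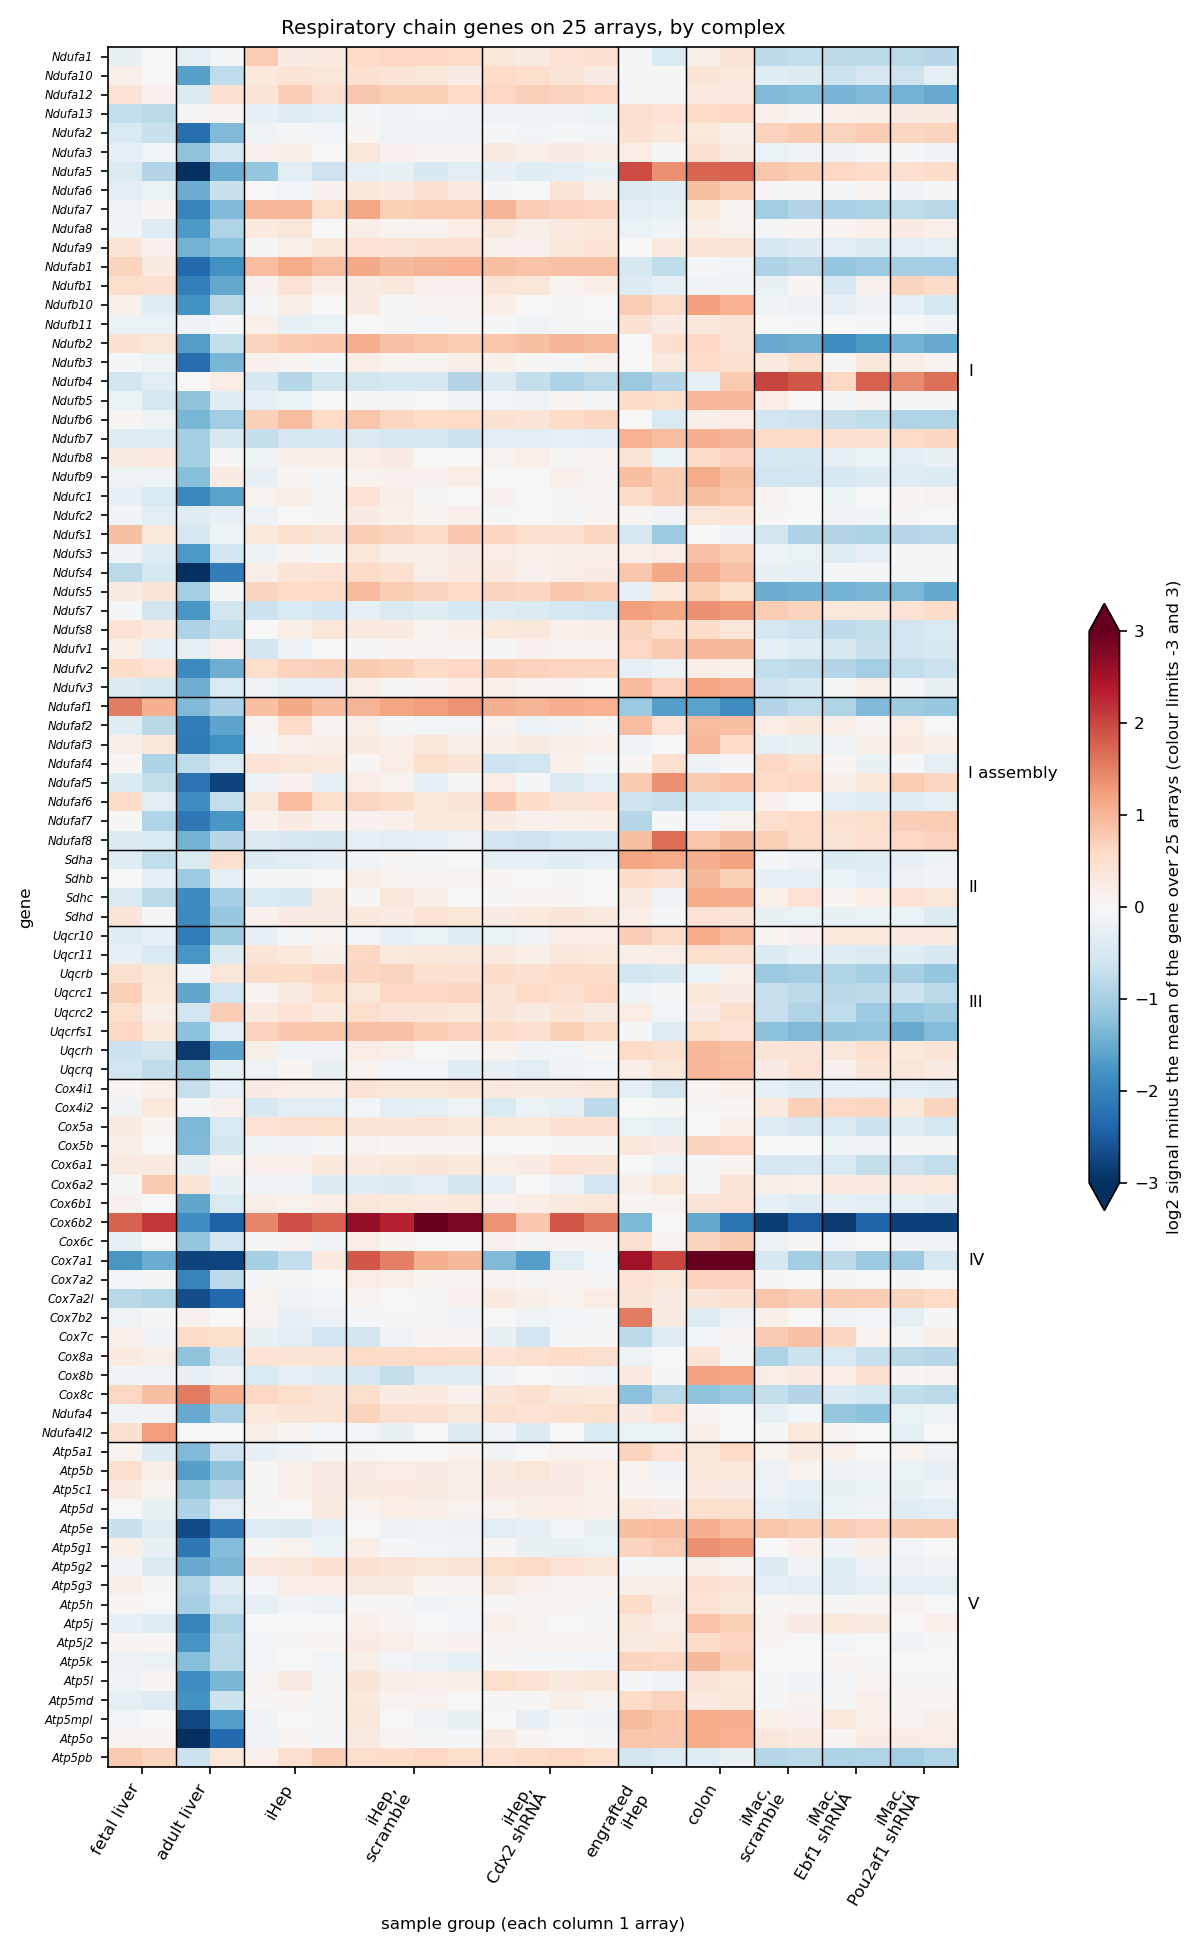
Log2 signal of each of the 90 respiratory chain genes (rows, ordered by complex) in the 25 arrays (columns, by group), minus the gene's mean over the arrays and drawn between -3 and 3. The 2 adult liver columns are the lowest for most rows, and Cox7a1 and Cox6b2 have the widest colour range of complex IV.

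The labelled cell types were checked against their markers: 7 of 7 hepatocyte markers lay above the 40th percentile in all arrays of adult and of fetal liver, 8 of 8 colon epithelial markers in colon and at least 6 of 7 macrophage markers in each iMac group, which also held 5 of 5 B cell markers. In cultured iHeps 4 of 7 hepatocyte and 4 of 8 colon epithelial markers did. The hepatocyte and macrophage counts do not separate all groups. Hepatocyte markers also gave 4 of 7 in colon and in Ebf1 shRNA iMacs and 5 of 7 in engrafted iHeps. Macrophage markers gave 7 of 7 in fetal liver and 6 of 7 in adult liver and in colon. Some array measures set adult liver apart or divided the groups into sets. Signal from 12 probe sets of poly-A spike controls, control RNAs that are added to a sample, divided the arrays into 15 with a mean of 8.49 to 10.59 and 10 without (3.53 to 4.12). The 15 were fetal liver, adult liver, and the iHeps, scramble and Cdx2 shRNA iHeps, and the 10 were iMacs, colon and engrafted iHeps. Adult liver had the highest spike means, 10.59 and 9.74, against 8.49 to 9.16 in the other 13. Its Actb 3′ probe set exceeded the 5′ one by 1.21 and 1.99, against -0.28 to 0.49 in the other 23 arrays, a difference used as a measure of RNA integrity. On the Gapdh difference, another such measure, adult liver (1.05 and 1.46) overlapped with engrafted iHeps (1.41 and 1.38), above colon (0.79 and 0.86) and cultured iHeps (-0.09 to 0.04). Adult liver replicate 1 had the higher spike mean and the lower median of the 90 genes, but the smaller Actb and Gapdh differences of the 2 adult arrays. The part of these measures in the low levels of adult liver, and in the comparisons of engrafted iHeps, was not tested. Between the sets of arrays, spike set and group cannot be told apart: this holds for adult liver against colon, iHep against colon and engrafted iHep against iHep. Of the 90 genes, 8 were lower in all 15 arrays with spike than in all 10 without (8.89%, against 4.69% of all genes) and Cox8c was higher (1.11% against 4.83%). The 8 were Atp5e, Ndufa2, Ndufa5, Ndufaf8, Ndufb7, Ndufs7, Uqcrh and Uqcrq.

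**Figure D2:**
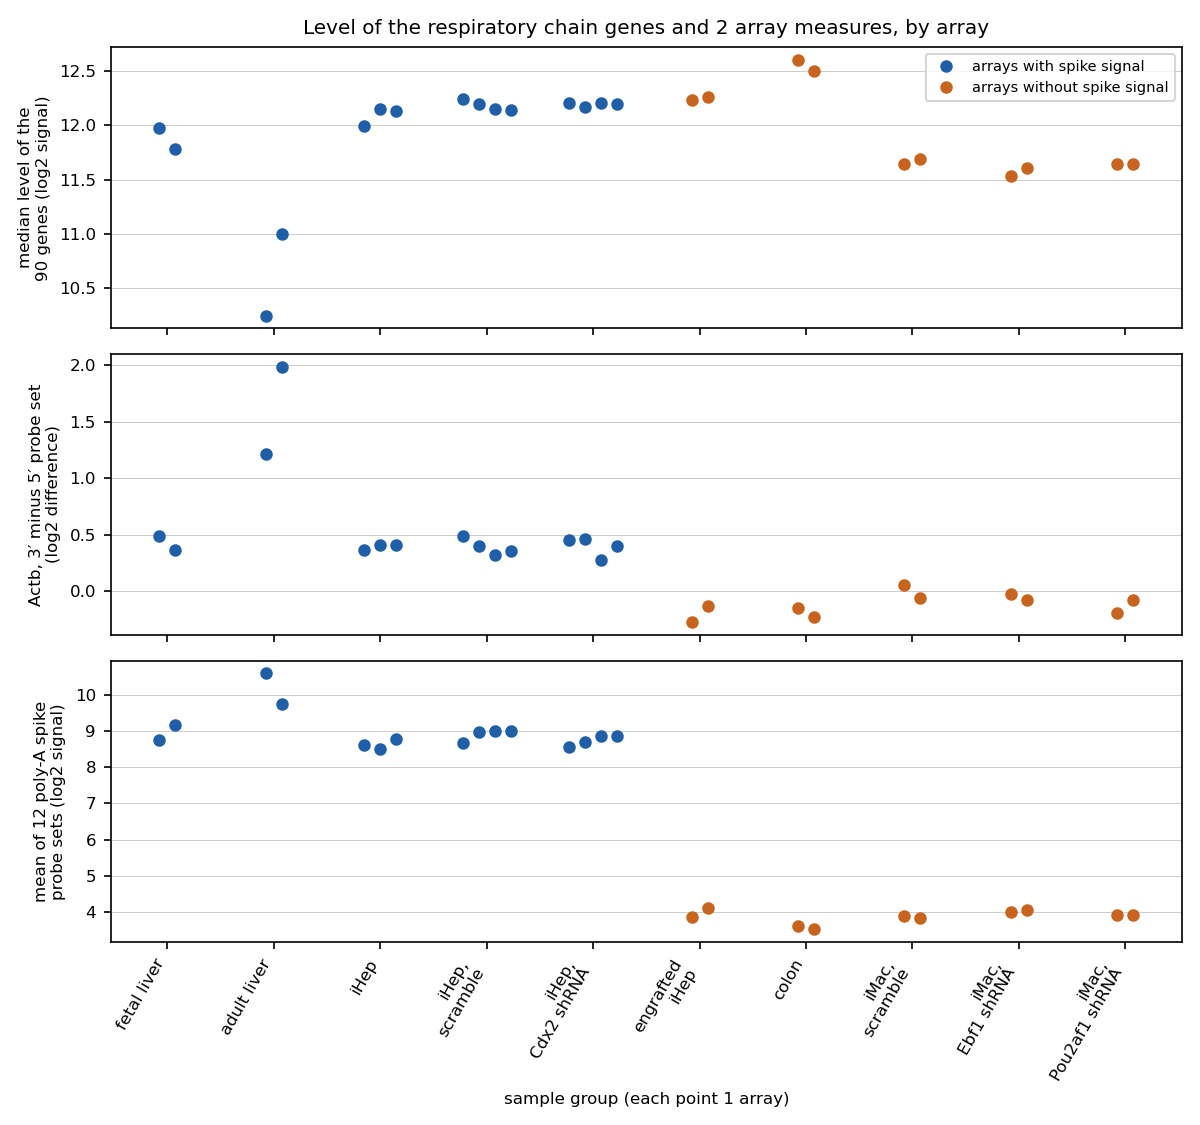
For each of the 25 arrays, the median log2 signal of the 90 genes, the Actb 3′ minus 5′ difference in log2 signal and the mean log2 signal of 12 poly-A spike probe sets, with arrays with spike signal in blue and without it in orange. The adult liver arrays stand apart on all 3 measures, with medians of 10.25 and 11.

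Against fetal liver, adult liver had lower levels of most of the chain. In limma's fit, 58 of 88 genes tested fell and 1 rose at an adjusted p under 0.05, with a median log2 difference of -1.05 against -0.16 over all 15266 genes tested. Of all genes tested 49.3% passed, 31.1% lower and 18.2% higher. Without adult liver replicate 1, or without fetal liver replicate 1, 39 of the genes were called, and without adult liver replicate 2, 71. Hepatocyte markers (list of 7) averaged 14.09 and 14.10 in adult and 10.04 to 10.44 in fetal liver, erythroid markers (7) 6.01 to 6.39 and 11.28 to 11.56, and cell cycle genes (4) 5.92 to 6.83 and 13.05. The 2 adult arrays lay far apart in Kupffer cell (5), macrophage (7) and leukocyte (5) markers, with averages of 8.38 to 10.70, 8.16 to 9.97 and 8.26 to 9.62, against 8.41 to 9.21, 9.98 to 10.48 and 9.98 to 10.40 in fetal liver. B cell markers (5) averaged 5.90 to 6.45 in adult and 7.79 to 9.03 in fetal liver. Fewer cells of a type and less RNA per cell cannot be told apart in such bulk samples, and the part of cell type was not tested.

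Among the complex I subunits 20 of 33 fell and 1 rose, with a median of -0.93. Ndufab1, the acyl carrier subunit shared with mitochondrial fatty acid synthesis, stood at 12.49 and 12.10 in fetal and at 9.49 and 10.01 in adult liver (log2 difference -2.54 ± 0.25 SE, adjusted p = 2.53e-05). The fetal arrays lay above the adult ones without overlap, but 76.9% of all genes tested had groups that did not overlap, in either direction. The probe set is of a type that several transcripts can share, and averaging the probe sets of Ndufab1 gave an adjusted p of 0.498. That average takes in probe sets near background. It also takes in a set that rose from 5.04 in fetal liver, within background, to 7.49 in adult liver, above background. Without shared probe sets the difference was -0.77 (adjusted p = 0.134). Ndufv2, of the NADH-oxidising module, fell by 2.18 ± 0.22, from 12.28 and 12.16 to 9.81 and 10.26. Ndufb1, a membrane subunit, fell by 2.31 ± 0.23 to 5.12 and 5.63, within the background of these arrays, so the size is no exact value. Ndufa13, also called GRIM-19, was the gene that rose: it stood at 12.38 and 12.31 in fetal and 13.15 and 13.21 in adult liver (0.83 ± 0.19, adjusted p = 0.00401).

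The complex I assembly factors, which are needed to build the complex but are not part of it, gave 6 of 8 lower and a median of -1.48. Ndufaf1 was at 9.94 and 9.48 in fetal and 7.10 and 7.45 in adult liver, a fall of 2.44 ± 0.27. Ndufaf3 fell by 2.23 ± 0.23 and Ndufaf5 by 1.94 ± 0.29, the latter to values of which 1 lay under the 40th percentile of its array. In complex II, which is also an enzyme of the citrate cycle, 1 of 4 fell. This was Sdhd, a membrane anchor, at 11.62 and 11.18 in fetal and 9.32 and 10.09 in adult liver (-1.70 ± 0.28, adjusted p = 0.000669). Sdha, the flavoprotein, stood at 11.45 and 11.07 in fetal and 11.38 and 12.31 in adult liver (0.59, not past the threshold). The groups overlapped, and Sdha was 1 of 5 genes of the chain with a positive difference. Sdhb, the iron-sulfur subunit, and the anchor Sdhc differed by -0.56 and -0.83, not past the threshold.

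In complex III, 4 of 8 genes fell, with a median of -0.99. Uqcrh, the hinge protein that binds cytochrome c1, stood at 12.15 and 12.24 in fetal and 9.92 and 11.22 in adult liver, a fall of 1.63 ± 0.36. Uqcrc1, a core subunit, fell by 1.58 ± 0.32 and Uqcr10 by 1.27 ± 0.32. In complex V, 15 of 17 genes fell, with a median of -1.16. Atp5o, the subunit that holds the stator to the catalytic head, stood at 12.29 and 12.28 in fetal and 8.69 and 9.87 in adult liver (-3.01 ± 0.33, adjusted p = 4.82e-05). The genes Atp5g1, Atp5g2 and Atp5g3 encode the same mature c subunit of the proton-driven ring with different import sequences. They fell by 1.72, 1.16 and 0.72, with adjusted p of 0.000809, 0.000864 and 0.0284. The call of Atp5g3 ended without adult liver replicate 1 (-0.46, adjusted p = 0.174), fetal liver replicate 1 (0.141) or fetal liver replicate 2 (0.0547).

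In complex IV, 12 of 18 genes fell and 0 rose, with a median of -0.94. The largest fall was that of Cox6b2, at 9.94 and 10.29 in fetal and 6.32 and 5.75 in adult liver (-4.09 ± 0.43, adjusted p = 3.76e-05). The lower adult value was just under the 40th percentile of its array, and raised to that percentile it gave a difference of -4.08. Cox7a1, also among the 12, lay under the percentile in all arrays of both livers, so its call (-1.15, adjusted p = 0.03) compares values within background. Cox6b1, the ubiquitous counterpart of Cox6b2, stood at 13.35 and 13.21 in fetal and 11.67 and 12.78 in adult liver (-1.06, adjusted p = 0.0183). Without adult liver replicate 1 this was -0.50 (adjusted p = 0.105), and without fetal liver replicate 1 or 2 the adjusted p was 0.0919 or 0.0558. Cox7a2l, described as a factor for supercomplexes of complexes III and IV, fell from 11.34 and 11.27 to 9.52 and 9.84 (-1.62 ± 0.21). Of the liver-type isoforms, Cox7a2 fell by 1.34 ± 0.33 and Cox8a by 1.11, while Cox6a1 differed by -0.34 and was not past the threshold. For Cox8a another probe set of the gene moved the opposite way by at least 0.5. The muscle isoforms Cox6a2 and Cox8b differed by -0.29 and -0.08, and Cox4i2 by -0.05, none past the threshold. Ndufa4l2, a paralog of Ndufa4 known from hypoxia, stood at 7.59 and 8.35 in fetal and 6.65 to 7.42 in all other arrays, and fell by 0.87 (adjusted p = 0.0204). That call ended without fetal liver replicate 2 (-0.49, adjusted p = 0.164) and without adult liver replicate 1 or 2 (adjusted p = 0.0681 and 0.0672).

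Other genes of mitochondrial energy metabolism were also lower in adult liver in most lists, set against 31.1% lower and 18.2% higher over all genes. Of 76 mitochondrial ribosomal proteins, which translate the mitochondrially encoded subunits, 66 fell and 1 rose (median -1.69). Further assembly factors gave 22 of 39 lower and 1 higher (median -0.83). The latter was Sco2, a copper chaperone of complex IV (4.37 ± 0.29), while Cox17, another, fell by 3.32 ± 0.31 and Atpif1, the ATP synthase inhibitor, by 5.67 ± 0.19. The citrate cycle list gave 13 of 17 lower and 1 higher (median -0.96), with Idh3a at -2.60 ± 0.24 and Suclg2 at 1.14 ± 0.31. Electron carriers and feeders gave 8 of 19 lower and 4 higher (42.1% and 21.1%, near the shares of all genes), with cytochrome c (Cycs) at -2.09 ± 0.27 and Prodh, the first enzyme of proline breakdown, at 3.64 ± 0.72. Slc25a4, an ADP/ATP carrier, fell by 4.0 ± 0.33 and Vdac2, a porin of the outer membrane, by 2.72 ± 0.22. Glycolytic genes, which act outside mitochondria, fell in 11 of 12 cases (median -2.56), with Hk1 at -4.57 ± 0.33.

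**Figure D3:**
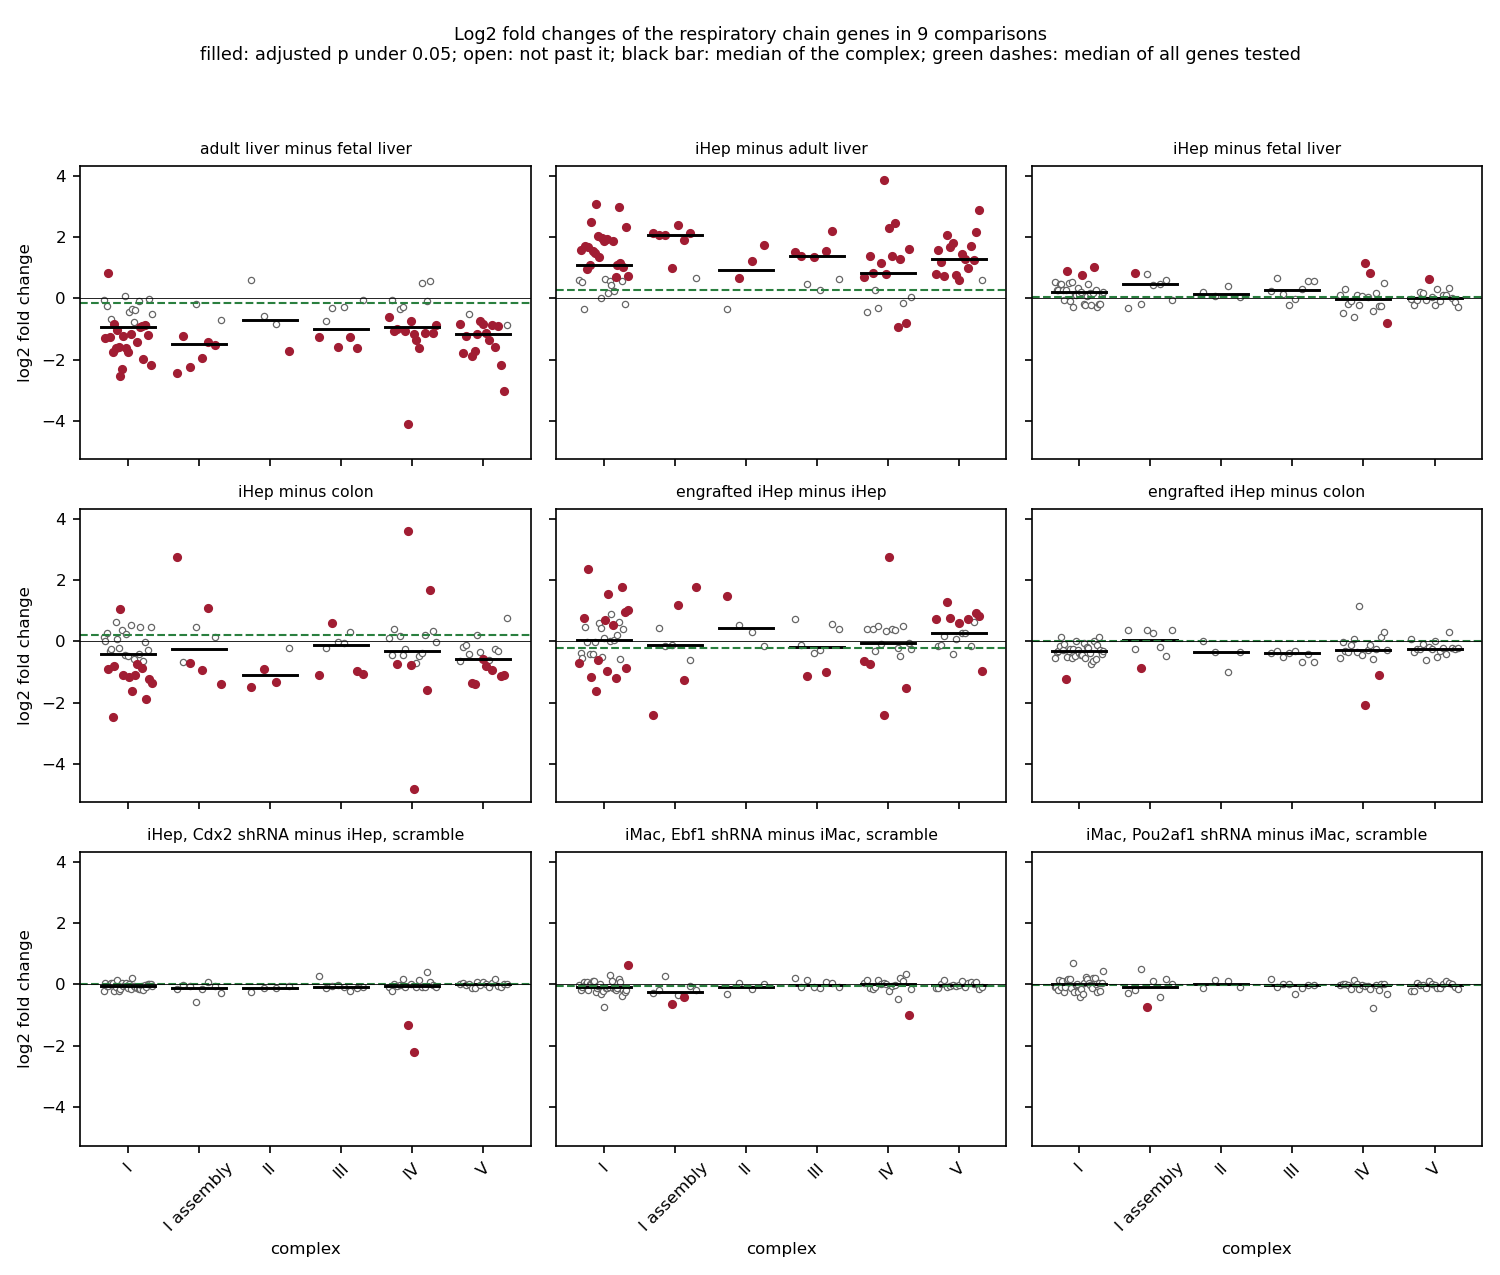
Log2 differences of the respiratory chain genes by complex in 9 comparisons, with filled points at an adjusted p under 0.05, a black bar at the median of each complex and a green dashed line at the median of all genes tested. In adult against fetal liver the medians of the complexes lie between -1.48 and -0.69, against -0.16 for all genes.

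Cultured iHeps stood near fetal liver and above adult liver. Against adult liver 64 of 88 genes were higher and 2 lower, with a median of 1.23 against 0.26 over all genes, of which 55.9% passed (37.8% higher and 18.2% lower). By complex, 22 of 33 genes of complex I, 7 of 8 assembly factors, 3 of 4 of complex II, 5 of 8 of complex III, 11 of 18 of complex IV and 16 of 17 of complex V were higher. This comparison shares the adult liver arrays with the last, so its direction is no independent result. Ndufs4, an accessory subunit of complex I, stood at 11.18, 11.40 and 11.43 in iHeps and 7.76 and 8.93 in adult liver (2.99 ± 0.32). Cox6b2 was at 9.64, 10.11 and 9.95 in iHeps, a difference of 3.87 ± 0.39 (adjusted p = 2.38e-05). Cox7c and Cox8c were the lower genes (-0.92 ± 0.21 and -0.81 ± 0.22). The call of Cox8c ended without adult liver replicate 1 (-0.58). Cox7c turned to 0.92 where shared probe sets were left out, at means within background (5.31 in iHeps and 4.39 in adult liver).

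Against fetal liver, 7 of 88 genes were higher in iHeps and 1 lower, with a median of 0.14 against 0.05 over all genes, of which 33% passed (19.9% higher and 13.1% lower). The share of the chain that passed was thus below that of all genes. Cox7a1 stood at 6.04, 6.29 and 7.32 in iHeps and 5.29 and 5.53 in fetal liver (1.14 ± 0.35, adjusted p = 0.0301), where both arrays were within background, so the size is no exact value. The other complex IV genes called were Cox7a2l, at 0.83 ± 0.19, and Ndufa4l2, at -0.81 ± 0.24. In complex I, Ndufs4 was higher by 1.01 ± 0.32, Ndufa7 by 0.90 and Ndufb6 by 0.77, and the assembly factor Ndufaf2 by 0.84. In complex V Atp5g2 was higher by 0.64 ± 0.18, and 0 of the 12 genes of complexes II and III passed. Without fetal liver replicate 2, 0 genes passed, and the other arrays left out gave 2 to 6. In the same comparison Slc25a4 was higher by 2.26 ± 0.30 and Esrra, which encodes an estrogen-related receptor, by 1.66 ± 0.24.

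Colon crypts had the highest levels of the chain, and against them adult liver was lower for 71 of 88 genes and higher for 1 (median -1.57 against -0.20, with 60.7% of all genes passing, 35.9% lower). Between iHeps and colon 6 genes were higher and 32 lower (median -0.42 against 0.22, with 53.6% of all genes passing, 21.3% lower). With arrays centred on their medians the split of iHep against colon was 10 higher and 27 lower. Without colon replicate 1, 20 genes were called in iHep against colon. In adult liver against colon, Ndufa5, a complex I subunit, differed by -4.15 ± 0.52, Sdhc by -2.53 ± 0.35 and Uqcrh by -3.18 ± 0.36. Cox8c was the gene that was higher in adult liver (2.48 ± 0.24). In iHeps against colon the assembly factor Ndufaf1 was higher, at 2.74 ± 0.25, and Ndufa5, Sdha and Atp5g1 were lower, at -2.46, -1.48 and -1.37. Ndufab1, Uqcr10 and Uqcrq changed sign in iHep against colon when the probe sets of each gene were averaged. Averaging also ended the call of Sdha (-0.42, adjusted p = 0.0941), with probe sets within background taken in. A further Sdha probe set stood at 11.76 in iHeps and 12.35 in colon. For Uqcrq the probe sets beside the one used lay within background in colon, at means of 4.93 to 5.22. For Uqcr10 they lay above background, at 6.60 and 8.63 in colon and 9.66 and 9.58 in iHeps.

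Cox7a1 had the widest range of group means of the 90 genes. It stood at 11.41 and 11.32 in colon, 9.55 and 9.04 in engrafted iHeps and 8.90, 8.53, 8.10 and 8.01 in iHeps with scramble shRNA. It was at 5.38 to 6.94 in iHeps with Cdx2 shRNA, 6.04 to 7.32 in untransduced iHeps and 5.91 to 6.54 in iMacs. Fetal liver had 5.29 and 5.53 and adult liver 4.25 and 4.27, all under the 40th percentile of the arrays (5.52 to 5.80). The colon, engrafted and scramble groups did not overlap with each other or with any other group, and the Cdx2 shRNA, untransduced iHep and iMac groups overlapped. Relative to colon, iHeps differed by -4.81 ± 0.35 (adjusted p = 4.74e-06). Adult liver was lower than colon too (adjusted p = 4.3e-07), but as its values lie within background the size is no exact value: the fit gave -7.11, and the adult values raised to the percentile gave -5.58.

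Cox8b, another muscle isoform, also stood highest in colon, at 7.58 and 7.56, against 5.90, 6.07 and 6.01 in iHeps (-1.58 ± 0.19, adjusted p = 9.89e-05). It ranged from 5.66 to 6.88 in the other groups, engrafted iHeps included, so its spread was far narrower than that of Cox7a1. The third muscle isoform, Cox6a2, was between 6.84 and 8.24 in all arrays, with its highest value in a fetal liver array, and no comparison called it. A list of 6 striated muscle markers averaged 6.92 to 7.10 in colon, 6.35 to 6.5 in engrafted iHeps and 5.58 to 6.18 elsewhere. In colon this average rested on Acta1 and Ckmt2, with means of 10.65 and 7.74 against 5.85 to 7.44 and 3.60 to 5.19 in the other groups. Mb and Ckm, at 7.05 and 7.39, were within the range of the other groups, and Myl1, at 4.12, was lowest in colon. Its part in the levels of Cox7a1 and Cox8b was not tested.

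Cox6b2 divided the groups differently. It stood at 10.48 to 11.33 in scramble iHeps, 8.98 to 10.03 in Cdx2 shRNA iHeps, 9.64 to 10.11 in untransduced iHeps and 9.94 and 10.29 in fetal liver. It was at 6.82 and 8.16 in engrafted iHeps, 6.64 and 5.99 in colon, 6.32 and 5.75 in adult liver and 5.31 to 5.78 in iMacs. The scramble group did not overlap with any other, and engrafted iHeps lay between the other iHeps and colon. Cox8c, the other testis isoform with signal, was between 7.42 and 8.85 in the livers and cultured iHeps and between 6.08 and 6.90 in colon, engrafted iHeps and iMacs, the same division as that by spike signal. Cox4i2 stayed between 5.99 and 7.49 in all arrays, with 7.08 to 7.49 in iMacs.

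**Figure D4:**
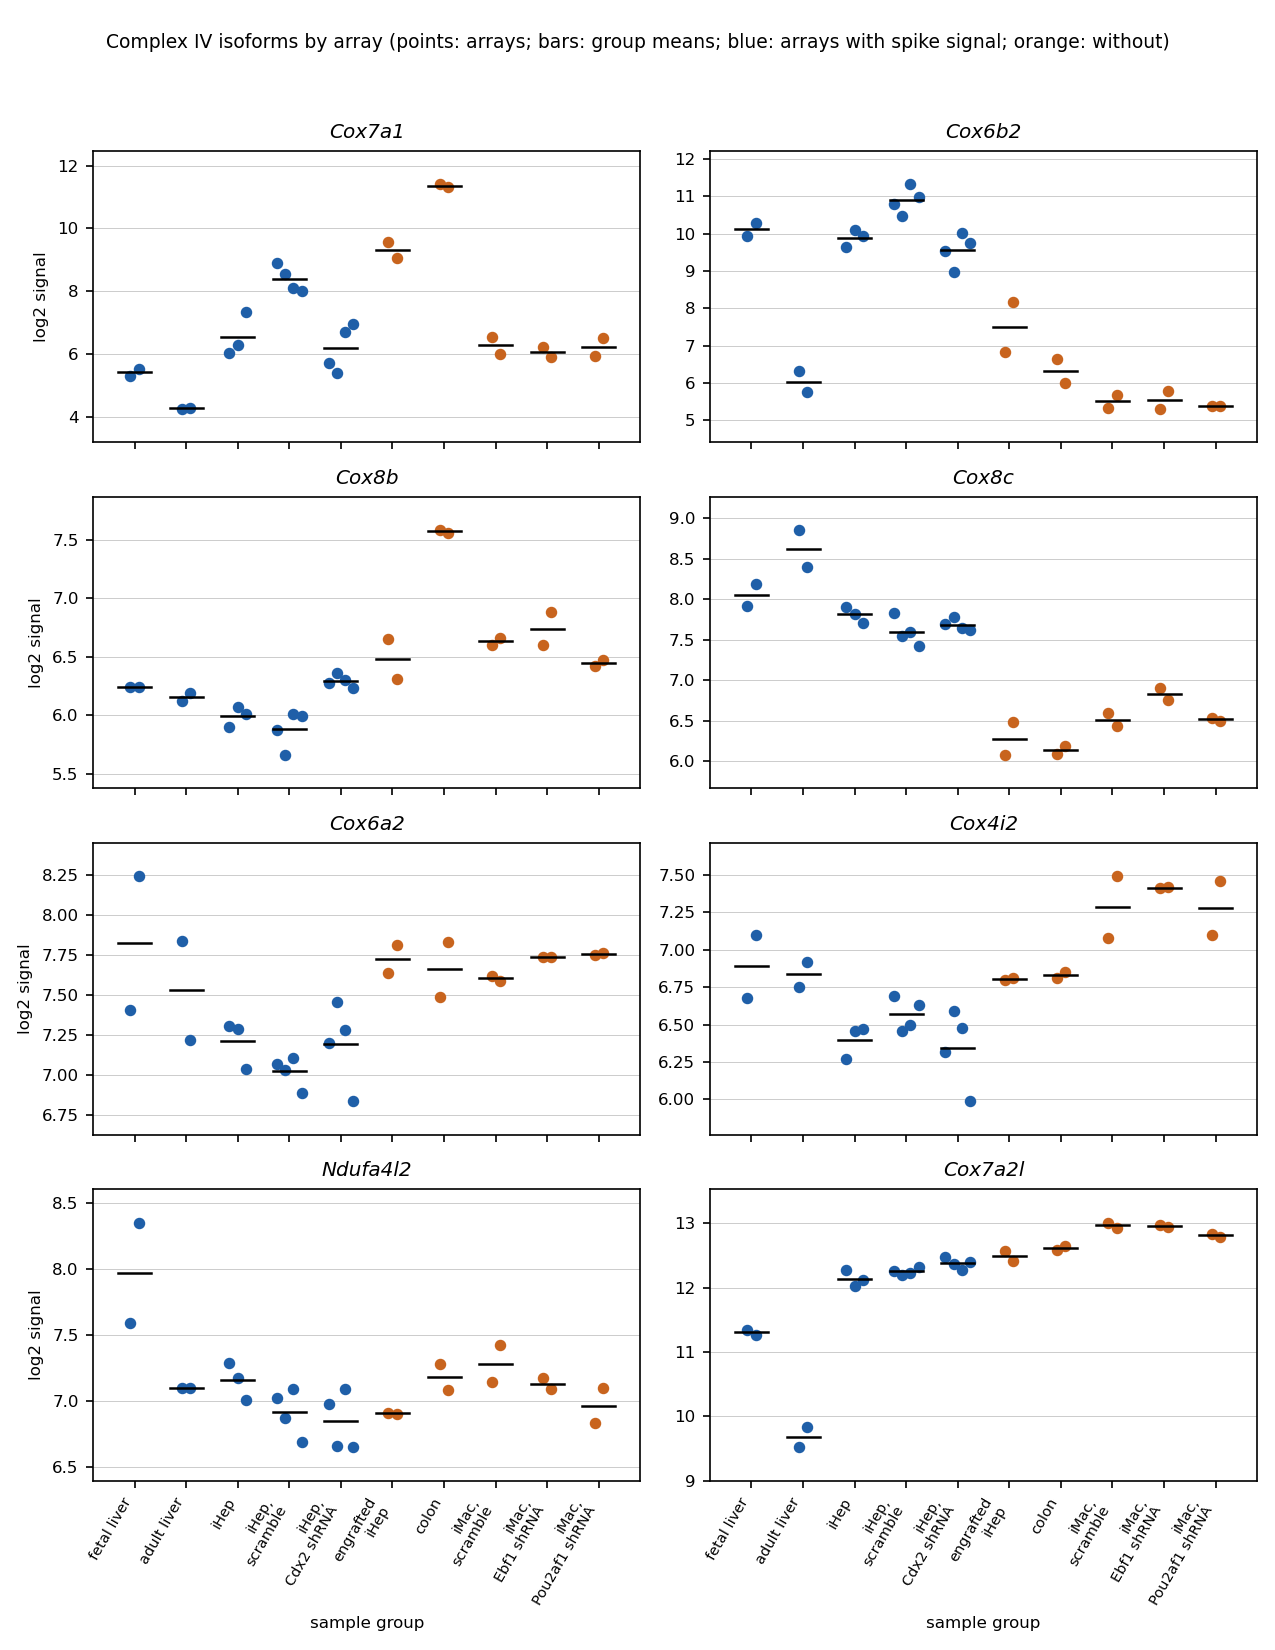
Log2 signal of 8 isoform and paralog genes of complex IV in the 10 groups, with a point per array and a bar at the group mean. Cox7a1 is highest in colon, engrafted iHeps and scramble iHeps, Cox6b2 in cultured iHeps and fetal liver, and Ndufa4l2 in fetal liver.

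Engrafted iHeps differed from colon in 4 genes of the chain in the model of 11 arrays, and in 20 with all 25 arrays in 1 model. Colon epithelial markers (8) averaged 11.23 to 11.90 in them, 12.63 to 12.66 in colon and 7.49 to 7.81 in cultured iHeps, and Cdx2 itself had a mean level of 11.07, 11.66 and 9.49. The 2 engrafted arrays differed in other markers, with averages of 6.56 and 9.76 for fibroblast and 5.75 and 8.54 for macrophage genes, whose part in the results was not tested. Against colon, within the same spike set, 4 of 88 genes were lower and 0 higher, with a median of -0.29 against 0.01 over all genes, of which 16.8% passed (9.66% lower and 7.1% higher). The difference was negative for 75 of the 88 genes, and for 8 of 8 of complex III. Cox7a1 was lower, at 9.55 and 9.04 against 11.41 and 11.32 (-2.07 ± 0.38, adjusted p = 0.00695). Cox8b was lower too, at 6.65 and 6.31 against 7.58 and 7.56 (-1.09 ± 0.20, adjusted p = 0.00722). Ndufa6, a complex I subunit, stood at 11.34 and 11.42 against 12.69 and 12.52 (-1.23 ± 0.27), and Ndufaf3 at 8.85 and 9.0 against 9.99 and 9.60 (-0.87 ± 0.23). Without colon replicate 1, 0 of these 4 passed, with adjusted p from 0.0566 to 0.201. In the same comparison the receptor genes Esrrg and Esrra were lower (-2.68 ± 0.32 and -1.08), and Slc25a4 was higher by 1.81 ± 0.33.

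Against cultured iHeps, a comparison across the spike sets, 19 genes were higher and 16 lower in engrafted iHeps, 35 of 88 against 48% of all genes (18.2% higher and 29.7% lower). The median was 0.08 against -0.22 for all genes, and with centred arrays the split was 13 higher and 17 lower. Cox7a1 was higher by 2.74 ± 0.35 and Sdha by 1.48 ± 0.27, at 12.99 and 12.93 against 11.39, 11.50 and 11.56. Cox6b2 was lower (-2.41 ± 0.39), as was Ndufaf1 (-2.38), at 7.30 and 6.77 against 9.32, 9.55 and 9.37. In complex V, 7 of 17 genes were higher and 1 lower, among them Atp5e by 1.27. The probe sets of Ndufab1 opposed each other: the shared one read here differed by -1.60, and without shared probe sets the gene was higher by 3.87. Of genes with several probe sets, 24.1% gave opposite directions of at least 0.5 in this comparison, against 3.73% between engrafted iHeps and colon. The call of Sdha was lost where shared probe sets were left out (adjusted p = 0.655).

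The Cdx2 shRNA addressed what Cdx2, an intestinal transcription factor, controls in iHeps. Cdx2 itself stood at 9.14, 9.42, 8.96 and 8.98 with scramble and 7.78, 8.02, 8.01 and 8.03 with Cdx2 shRNA (-1.16 ± 0.12, adjusted p = 0.00397). Of the 88 genes of the chain tested, 2 fell and 0 rose, against 2.21% of 13658 genes in either direction (1.68% lower and 0.534% higher). The median difference was -0.05, against 0.00 over all genes. The shares of the chain and of all genes that passed were thus close, and both genes that fell were isoforms of complex IV.

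Cox7a1 stood at 8.90, 8.53, 8.10 and 8.01 with scramble and 5.71, 5.38, 6.68 and 6.94 with Cdx2 shRNA. All 4 scramble arrays lay above all 4 Cdx2 shRNA arrays, and the difference was -2.21 ± 0.35 (adjusted p = 0.0212, or 0.0391 with the replicate number as a block). The value of 5.38, of Cdx2 shRNA replicate 2, lay under the 40th percentile of its array (5.58), and raised to it the difference was -2.16. Cox6b2 stood at 10.80, 10.48, 11.33 and 10.99 with scramble and 9.53, 8.98, 10.03 and 9.75 with Cdx2 shRNA. Its groups did not overlap either, and it fell by 1.33 ± 0.24 (adjusted p = 0.0316, or 0.0037 with the block). Groups that did not overlap were found for 14.8% of the chain and 10.9% of all genes tested. Single arrays were left out of the fit without the block only, and there they carried these calls at the threshold. The adjusted p of Cox7a1 was 0.0591, 0.0704 and 0.0594 without scramble replicate 1, 2 or 4. That of Cox6b2 was 0.0806, 0.0833 and 0.112 without scramble replicate 1, 3 or 4, and 0.057, 0.0625 and 0.0541 without Cdx2 shRNA replicate 1, 2 or 4. With the block, Ndufaf4 also passed (-0.57 ± 0.09, adjusted p = 0.0324, against 0.191 without it), with 10.64, 10.82, 11.14 and 10.99 falling to 9.99, 10.00, 10.77 and 10.55.

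The counterparts of these isoforms did not pass with Cdx2 shRNA. Cox7a2 differed by -0.07 and Cox6b1 by -0.08, neither past the threshold. Cox8b was 0.41 higher (adjusted p = 0.0647). Of the other energy metabolism lists, 1 gene passed, Tmem70, an ATP synthase assembly factor (-0.50 ± 0.09, adjusted p = 0.0332), and 0 of 76 mitochondrial ribosomal proteins, 0 of 17 citrate cycle genes and 0 of 12 glycolytic genes did. Colon epithelial markers averaged 7.47 to 7.64 with scramble and 6.89 to 7.38 with Cdx2 shRNA.

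Scramble iHeps were also compared with untransduced iHeps, a comparison added after the levels of Cox7a1 and Cox6b2 were seen. In limma's fit 0 of 88 genes of the chain passed, against 0.317% of 13868 genes (0.26% higher and 0.0577% lower). At an unadjusted p under 0.05 there were 20 of the 88 (22.7%), against 19.3% of all genes. The difference was positive for 73 of the 88, with a median of 0.11 against 0.00. The difference was 1.84 ± 0.42 for Cox7a1 (adjusted p = 0.0878) and 1.00 ± 0.25 for Cox6b2 (adjusted p = 0.0987), neither past the threshold. Fibroblast markers (6) averaged 5.34 to 7.69 in untransduced and 7.84 to 8.18 in scramble iHeps, and their part in this was not tested. For both genes the Cdx2 shRNA arrays thus overlapped with the range of untransduced iHeps.

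In iMacs 4 genes of the chain passed the threshold with Ebf1 shRNA and 1 in the arrays labelled Pou2af1 shRNA, and a variance trend with robust fitting gave 9 and 11. With all 25 arrays in 1 model the counts were 1 and 0. Ebf1, a factor of early B cells, stood at 8.31 and 8.38 with scramble and 7.41 and 7.21 with Ebf1 shRNA (-1.04 ± 0.11, adjusted p = 0.00389). Of 89 genes of the chain tested, 1 rose and 3 fell with Ebf1 shRNA, against 14.4% of all 12483 genes passing in either direction (6.21% higher and 8.16% lower). The median was -0.06 against -0.04. Macrophage markers (7) averaged 11.19 to 11.27 with scramble, 11.82 to 11.85 with Ebf1 shRNA and 11.77 to 11.80 in the arrays labelled Pou2af1 shRNA, and B cell markers (5) 9.43 to 9.57, 8.89 to 9.13 and 10.34 to 10.43. The part of these differences in the results for the chain was not tested. Ndufa4, of complex IV, stood at 12.31 and 12.48 with scramble and 11.43 and 11.34 with Ebf1 shRNA, a 2.01-fold fall (log2 difference -1.01 ± 0.11, adjusted p = 0.00332). The groups did not overlap, as was so for 60% of all genes tested and 53.9% of the chain. The call held with each of the 4 arrays left out. In the arrays labelled Pou2af1 shRNA Ndufa4 was at 12.37 and 12.43, a difference of 0.01 ± 0.11.

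The other 3 calls with Ebf1 shRNA were smaller. Ndufv3, a subunit of the NADH-oxidising module, stood at 11.82 and 11.94 with scramble and 12.42 and 12.62 with Ebf1 shRNA (0.64 ± 0.12, adjusted p = 0.0239). Ndufaf4, an assembly factor, fell from 11.23 and 11.08 to 10.67 and 10.38 (-0.63 ± 0.15, adjusted p = 0.0389). Ndufaf6, another, fell from 8.05 and 7.93 to 7.60 and 7.57 (-0.41 ± 0.10, adjusted p = 0.0491). The groups of these 3 genes did not overlap, which was a condition for naming them and held for 60% of all genes tested. Each call ended when single arrays were left out. Without scramble replicate 1 the adjusted p of Ndufv3 was 0.12. Without any 1 of the 4 arrays it lay between 0.052 and 0.169 for Ndufaf4 and between 0.0961 and 0.182 for Ndufaf6.

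Pou2af1, a B cell coactivator, was not lower in the arrays labelled Pou2af1 shRNA, at 11.34 and 11.26 against 11.25 and 11.06 with scramble (0.14 ± 0.12, adjusted p = 0.495). In those arrays 1 of 89 genes of the chain fell and 0 rose, against 12% of all genes passing (5.15% lower and 6.8% higher), with a median of -0.02 against -0.03. The gene was Ndufaf4 again, at 10.55 and 10.32 (-0.72 ± 0.15, adjusted p = 0.0295). The same scramble arrays enter both comparisons, so its low values against both shRNAs are not independent. Its adjusted p was between 0.076 and 0.136 without any 1 of the 4 arrays. Ndufv3 stood at 12.40 and 12.22 there, above both scramble arrays but not past the threshold.

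**Figure D5:**
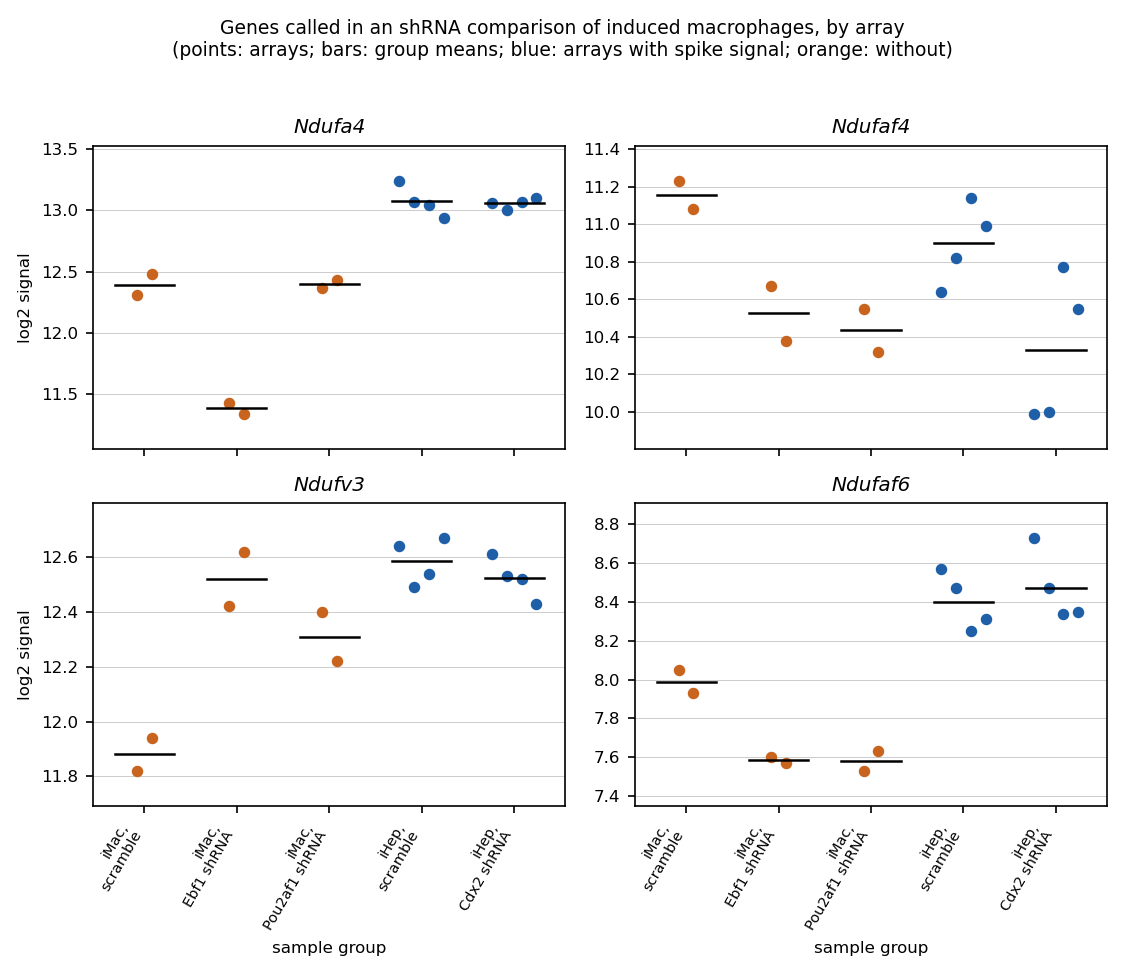
Log2 signal of Ndufa4, Ndufaf4, Ndufv3 and Ndufaf6 in the iMac groups (scramble, Ebf1 and Pou2af1 shRNA, 2 arrays each) and the iHep shRNA groups (4 arrays each), with a point per array. Ndufa4 is lower in the Ebf1 shRNA arrays, at 11.43 and 11.34, than in the other iMac arrays, and Ndufaf4 is lower than scramble in both iMac shRNA groups.

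Beyond the chain itself, the lists of energy metabolism are set against 8.16% lower and 6.21% higher over all genes with Ebf1 shRNA. Of 76 mitochondrial ribosomal proteins, 12 fell (15.8%) and 0 rose (median -0.23), among them Mrpl47 by 0.76 ± 0.14 and Mrpl13 by 0.75 ± 0.11. Further assembly factors gave 4 of 39 lower (10.3%), a share near that of all genes, with Cox10, which makes the heme of complex IV, at -0.57 ± 0.12 and Lrpprc, which stabilises mitochondrial transcripts, at -0.54 ± 0.13. Of 13 regulators tested 3 fell (23.1%), including Tfam, the factor that packages and transcribes mitochondrial DNA, by 0.70 ± 0.12. In the citrate cycle 2 of 17 genes fell (11.8%, also near), Idh3a by 0.53 ± 0.14 and Fh1 by 0.51 ± 0.10. Of 12 glycolytic genes 4 rose (33.3%), among them Tpi1 by 0.55 ± 0.10. In the arrays labelled Pou2af1 shRNA, with 5.15% lower and 6.8% higher over all genes, 2 of 76 ribosomal proteins, 3 of 12 glycolytic genes, 3 of 13 regulators and 1 of 19 electron carriers and feeders fell. Of 39 further assembly factors 1 fell there and 2 rose, Coa3 by 0.58 ± 0.10 and Uqcc2 by 0.51 ± 0.12.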

How the data were processed

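RNA from 25 mouse samples was measured on Affymetrix Mouse 430 2.0 arrays, after amplification of 100 ng of total RNA per the labels. The deposited values are log2 signals per probe set, computed by the authors with RMA per the submitters' processing notes; its version is not given in the sources used here. Arrays hold no read counts, so the number of arrays limits the precision.

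Of 45101 probe sets, 34945 had 1 symbol in the platform annotation and 932 had several, which named no gene. Genes of these families without a probe set of a single symbol were not analysed here. Genes above the 40th percentile of the array in at least 2 arrays of a model were tested with limma 3.58.1 in R 4.3.3 (lmFit, eBayes), two-sided, with Benjamini-Hochberg adjustment over all genes of a comparison and a threshold of 0.05. Errors of differences are limma's standard errors (SE). The model of iHeps, engrafted iHeps, livers and colon held 11 arrays, that of Cdx2 shRNA 8 and that of iMacs 6. The fits were tested on simulated data, and plots were made in Python 3.11.15 (matplotlib 3.10.9).

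Named members were, per comparison and complex, up to 3 called genes in each direction by size whose groups did not overlap. The isoform genes of complexes IV and V and the 4 Sdh genes of complex II were named as well. Only differences that were called entered the count of alternative values. The members, gene lists and rules were chosen with earlier results of these data known. Alternatives covered the filter, probe set choice, normalization, model and single arrays. Same-numbered arrays of the Cdx2 model deviated together over genes (correlations 0.53, 0.32, 0.58 and 0.44). The main fit did not pair them. The replicate block, an alternative, treated them as pairs, which the labels do not state.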

Additional observations from a re-analysis of the deposited data

Results flagged for a closer look

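Among the groups of 4 arrays, 2 of 44 gene and group combinations tested held an array far from the other 3, against about 1 in 20 expected by chance. The level of Atp5g1 in Cdx2 shRNA replicate 1 was 11.64, with the other 3 arrays at 11.40 to 11.41. The level of Sdha in Cdx2 shRNA replicate 3 was 11.44, with the other 3 at 11.54 to 11.55.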

How the results depend on the processing

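Of 2248 alternative values of 148 named gene differences, 1989 kept their direction and side of the threshold, 247 lost their call and 12 reversed; of 170 alternative counts of called genes in 11 comparisons, 119 stayed within 1.5 times the main count and 51 did not. The cause was not tested. Main counts were 59 for adult against fetal liver, 38 for iHep against colon, 35 for engrafted against cultured iHeps, 8 for iHep against fetal liver, 4 each for engrafted iHep against colon and Ebf1 shRNA, 2 for Cdx2 shRNA, 1 for Pou2af1 shRNA and 0 for scramble against untransduced iHeps. With all 25 arrays in 1 model they were 58 (iHep against colon), 54 (engrafted against cultured iHeps), 22 (iHep against fetal liver), 20 (engrafted iHep against colon), 1 (Ebf1), 0 (Pou2af1) and 1 (scramble). A minimum log2 change of 1 gave 24, 17, 2 (iHep against fetal liver), 1 (Ebf1) and 0 (Pou2af1). A variance trend with robust fitting gave 13 (iHep against fetal liver), 9 (Ebf1) and 11 (Pou2af1). No filter gave 2 and 0 with Ebf1 and Pou2af1 shRNA, and a filter at the 60th percentile 7 and 6. With Pou2af1 shRNA the mean of probe sets gave 3, and leaving out shared probe sets, repeated quantile normalization and centred arrays gave 2 each. Only arrays of the same spike set, added after seeing the data, gave 1 for engrafted iHep against colon.

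Leaving out single arrays gave 39 to 71 (adult against fetal liver), 64 to 74 (adult liver against colon), 50 to 76 (iHep against adult liver), 0 to 6 (iHep against fetal liver), 20 to 33 (iHep against colon), 23 to 25 (engrafted against cultured iHeps), 0 to 5 (engrafted iHep against colon), 0 to 2 (Cdx2 shRNA), 1 to 3 (Ebf1 shRNA), 0 (Pou2af1 shRNA) and 0 to 2 (scramble). A group left with 1 array was assumed to vary like the others. The replicate block gave 3 with Cdx2 shRNA, where it changed no call but that of Ndufaf4. In the other models the numbers did not pair the arrays (correlations from -0.15 to 0.10), and the block gave 2 for iHep against fetal liver, 20 for engrafted against cultured iHeps and 51 for adult against fetal liver, or 54 with the adult liver numbers crossed.

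The reversed values came from the choice of probe set. With the probe sets of a gene averaged they were 0.15 for Atp5g2, 0.25 for Sdha and 0.43 for Uqcrq in adult liver against colon, -0.57 for Ndufab1, 0.97 for Uqcr10 and 0.41 for Uqcrq in iHep against colon, and 0.12 for Ndufab1 in engrafted against cultured iHeps. Without shared probe sets they were 1.05 for Uqcrq in adult liver against colon, 0.92 for Cox7c in iHep against adult liver, -4.25 for Ndufab1 and 1.80 for Uqcrq in iHep against colon, and 3.87 for Ndufab1 in engrafted against cultured iHeps. Several of these rest on probe sets within background. Uqcrq was read there at 4.93 in colon, and Cox7c at 5.31 in iHeps and 4.39 in adult liver. The averages of Atp5g2 and Sdha took in probe sets at 2.78 and 4.60, and at 4.65 and 4.66, in colon. A further Sdha probe set, at 11.41 in adult liver and 12.35 in colon, kept the main direction. Ndufab1 was read above background, at 8.10 in iHeps and 12.35 in colon. The average of Uqcr10 took in further probe sets above background, at 9.66 and 9.58 in iHeps and 6.60 and 8.63 in colon. Centring the arrays moved the median of all genes from -0.16 to -0.27 in adult against fetal liver, from 0.26 to 0.42 in iHep against adult liver, from 0.22 to 0.35 in iHep against colon and from -0.22 to -0.33 in engrafted against cultured iHeps.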

Other observations

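Among the regulators of the chain, 4 of 15 were higher and 6 lower in adult than in fetal liver (26.7% and 40%), against 18.2% and 31.1% of all genes. Yy1 fell by 2.88 ± 0.22 and Pprc1, a coactivator of the PGC-1 family, by 2.47 ± 0.37. Polg, the mitochondrial DNA polymerase, was higher by 1.93 ± 0.31 and Ppargc1b by 1.59 ± 0.59 (adjusted p = 0.0464). Between engrafted and cultured iHeps, arrays that also differ in spike signal, Ppargc1b was higher by 3.82 ± 0.54 and Gabpa differed by -2.23 ± 0.20. The labels of the fetal and adult liver arrays do not separate the cell types of these tissues.

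For Ndufab1, the second probe set read differently from the one used in the report. The used probe set had means of 12.82 in iHeps, 12.29 in fetal and 9.75 in adult liver, 11.77 in colon and 11.21 in engrafted iHeps. The other had 8.10, 7.54, 6.76, 12.35 and 11.97 in the same groups.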
